A study of Mus musculus with 13 samples.

Results

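The Hox genes of mouse back skin were taken as all gene symbols made of Hoxa, Hoxb, Hoxc or Hoxd followed by a paralog group number. This rule uses names and no measured value, and it found 39 of the 27998 genes in the matrices. The members were 11 Hoxa, 10 Hoxb, 9 Hoxc and 9 Hoxd genes, which is the full set of mouse Hox clusters carried in the annotation used. Antisense and host transcripts of the clusters were not members.

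Hox genes encode homeodomain transcription factors that give cells of the body axis their position. In each cluster the genes lie in order of paralog group, low groups being expressed from the hindbrain and neck backwards and high groups only in the lower trunk, limb ends and tail. Hox proteins bind DNA together with the TALE homeodomain cofactors Pbx and Meis, retinoic acid and Cdx factors activate the clusters in the embryo, and Trithorax and Polycomb complexes keep them on or off afterwards. In adult skin dermal fibroblasts keep a Hox pattern of their site of origin, and Hoxc13 is known as an activator of hair keratin genes.

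The series profiled single cells of C57BL/6 mouse back skin with droplet-based 3′ RNA-seq, in wild-type mice (WT) and in littermates lacking the transcription factor Grhl3 (Grhl3-/-, here KO), which fail to form a normal epidermal barrier. Whole skin was used at embryonic day E14.5 and E16.5, and epidermis separated from dermis at the age labelled P0, for which the methods also name embryos shortly before birth, so the exact age is uncertain. Each age had 2 WT and 2 KO libraries, and P0 had a first WT library made with an earlier kit, which is given as values and enters no test. The methods describe the skin as a circle near the midline at the level of the forelimbs, the same region at every age. Whether the libraries match in their exact position was not tested. A library was the replicate, and because nothing ties each library to a separate litter, p-values measure the spread between these libraries only. Between the embryonic ages and P0 the preparation changed with the age, and these cannot be told apart. In WT, sex also changed from E16.5 to the tested P0 libraries (below).

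The 13 libraries held 5068 to 9978 barcodes, of which 5058 to 9157 cells were kept, with 49245953 to 107038146 unique molecular identifiers (UMIs) per library and a median of 7448 to 9976 per kept cell. Pairs of libraries shared 0 to 131 cell barcodes. Grhl3 in interfollicular epidermis (IFE)-like cells was 15.1 and 15.9 CPM (UMIs scaled to a fixed total, defined below) in the P0 WT libraries and 2.49 and 5.52 CPM in the KO libraries. At E16.5 it was 18.8 and 20.4 against 12.8 and 8.09 CPM, and at E14.5 48.2 and 60.02 against 36.5 and 35.6 CPM, so transcripts were still counted in KO cells, and whether these 3′ tags lie in the deleted part was not tested. Xist-positive libraries numbered 1 at E14.5, 3 at E16.5 and 0 at P0. Both E16.5 WT libraries were female by Xist (1309 and 1162 CPM). Both tested P0 WT libraries were male by Ddx3y (50.5 and 52.5 CPM). Sex therefore cannot be told apart from age in the WT comparisons of P0 with E16.5. Libraries of the same age also differed in composition. At E16.5 Adipoq over all cells was 0.776 and 0.0347 CPM in WT and 120 and 56.3 CPM in KO. At E14.5 KO replicate 2 held 1489 IFE-like cells against 348, 515 and 548 in WT replicates 1 and 2 and KO replicate 1. It held 30 cartilage-like cells against 248, 393 and 160, and its Adipoq was 0.0591 CPM against 33.6, 18.8 and 23.2 CPM. The part of these differences in the Hox values was not tested. WT replicate 1 held 174 neuron-like cells against 12 to 24 in the other E14.5 libraries, with Tubb3 over all its cells at 112 CPM against 9.97 to 19.0 CPM. When libraries were not integrated, a cluster led by Calb1 and Osr2 held 777 cells of WT replicate 2, 165 of WT replicate 1 and 1 and 2 of the KO libraries, and another led by Calb1 and Enpp2 held 108, 13, 0 and 0, with 167 and 168 Hox CPM. Counts of changed Hox genes are therefore also given without 1 library at a time, as ranges for every comparison and by library for some.

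Cells were clustered with the Hox genes left out, and clusters were called "X-like" from marker lists. The defining keratins, collagens and other markers were found in each class as named, but no fibroblast-like class was found in the separated epidermis of P0 and no hair follicle-like class at E14.5. A cluster was named only if at least 3 of its markers reached 10 CPM. Cells of unnamed clusters entered no test. They were 24.1 and 21.0% of P0 cells in WT, 20.2 and 20.9% in KO and 18.2% in the first WT library. At P0 they held 398 to 422 Hox CPM in the tested libraries. In the embryonic libraries they were 0.201 to 8.01% of cells. Levels below are CPM, the UMIs of a gene over all UMIs of the class in a library, scaled to a total of 1e6. UMIs count 3′ ends, so CPM does not depend on transcript length in the way read counts do, but capture still differs between genes.

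The 4 clusters lie, in mm10, at chr6:52155590-52260880 on the minus strand (Hoxa), chr11:96194316-96368256 (Hoxb), chr15:102921103-103036852 (Hoxc) and chr2:74668310-74765142 (Hoxd), the last 3 on the plus strand. Counts of members can be affected where the exons of gene models overlap. Hoxc5 and Hoxc10 share 166 exonic bases in the annotation, and Hoxd3 and Hoxd4 share 388. The introns of Hoxa3 span Hoxa4, Hoxa5 and Hoxa6, but Hoxa3 shares no exonic bases with them. RefSeq promoter sequence (GRCm38.p6, 250 bases before the start site) was at hand for 22 members. The core hexamer of retinoid receptor sites, AGGTCA on either strand, was found in 6 of these 22 members (Hoxb4, Hoxc4, Hoxd3, Hoxd4, Hoxd8 and Hoxd10) and in 14% of the 32851 promoters of the table. The Grainyhead site AACCGGTT, which Grhl proteins bind, was in 0 of 22 and in 0.116% of all promoters. Shown here are the windows of Hoxb4, Hoxc4 and Hoxd4, the members of paralog group 4 called higher in KO IFE-like cells of P0 (below), while Hoxa4 of that group was not called; capitals mark the match, which lies on the minus strand and is therefore written TGACCT. The windows are chr11:96318139-96318238, chr15:103034202-103034301 and chr2:74721786-74721885, all on the plus strand. The matches lie 81, 146 and 145 bases before the start sites. A match is a run of letters, not a bound site.
Hoxb4: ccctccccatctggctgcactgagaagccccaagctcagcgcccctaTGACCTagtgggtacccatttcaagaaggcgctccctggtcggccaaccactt
Hoxc4: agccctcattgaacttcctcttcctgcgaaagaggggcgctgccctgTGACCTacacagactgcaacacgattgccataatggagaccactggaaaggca
Hoxd4: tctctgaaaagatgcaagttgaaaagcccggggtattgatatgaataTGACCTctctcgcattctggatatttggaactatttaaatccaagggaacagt

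In the 12 libraries that enter tests, the 39 members gave 318936 UMIs. Hoxa7 was the most abundant, with 41934 UMIs, followed by Hoxc8 with 38438, Hoxb2 with 23996, Hoxc4 with 23907, Hoxb4 with 20478 and Hoxc6 with 19486. The members with under 100 UMIs were all of paralog groups 11 to 13, and they were Hoxa11 (18), Hoxa13 (1), Hoxb13 (31), Hoxc11 (23), Hoxc12 (21), Hoxd11 (41), Hoxd13 (4) and Hoxd12 (0). Of groups 11 to 13 only Hoxc13 was thus counted at depth in this back skin.

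The summed Hox level overlapped between IFE-like and fibroblast-like cells at both embryonic ages, and other classes lay above or below them. Summed over the 39 members, IFE-like cells had 436 to 573 CPM at E14.5, fibroblast-like cells 409 to 560 CPM and dermal condensate-like cells, the precursors of the dermal papilla, 434 to 579 CPM. Endothelial-like cells had 310 to 474 CPM, Schwann-like cells 263 to 345 CPM and muscle-like cells 165 to 274 CPM at that age. Macrophage or Langerhans-like cells of E14.5 held 30.6 to 65.0 CPM and mast-like cells 16.7 to 39 CPM, cells taken here as a background for free RNA in the droplets. Melanocyte-like cells held 41.6 to 75.8 CPM, on 15 to 42 Hox UMIs per library. Hoxb gave 32.3 to 73.1% of these, against 21.1 to 35.0% over all cells. Whether melanocyte-like cells express Hox genes of their own was not tested. In the E16.5 libraries endothelial-like cells had 497 to 595 CPM, dermal condensate-like cells 532 to 597 CPM and hair follicle-like cells 560 to 596 CPM, all above IFE-like (381 to 435 CPM) and fibroblast-like cells (414 to 429 CPM). The background was not even across blood cells. Erythroid-like cells held 126 to 218 CPM at E14.5 and 206 to 284 CPM at E16.5, which overlaps the sums of muscle-like cells at both ages and of Schwann-like cells at E16.5 (220 to 259 CPM), and T cell-like cells of P0 held 67.9 to 104 CPM in the tested libraries. In cells thinned to 3000 UMIs, a Hox UMI was seen in 59.96 to 78.3% of fibroblast-like, 66.4 to 85.2% of basal-like IFE and 65.3 to 83% of hair follicle-like cells, but in 4.17 to 13.3% of macrophage or Langerhans-like, 3.80 to 12% of mast-like and 5 to 20.9% of melanocyte-like cells. Without thinning these were 81.8 to 95.9%, 92.4 to 99.5%, 91.2 to 96.8%, 10.8 to 35.2%, 6.18 to 27.2% and 12.6 to 53.5%, at median depths of 3955 to 13000 UMIs, and thinning left out 0 to 116 shallower cells per library and class. Among thinned erythroid-like cells the share was 20.3 to 51.5%, below those of fibroblast-like, basal-like IFE and hair follicle-like cells. Suprabasal-like IFE cells overlapped this range, at 46.1 to 54.25% at E16.5. At P0 they had 33.96 and 33% in the tested WT and 51.4 and 48.1% in the KO libraries. Only at E14.5 did they lie above it, at 52.9 to 67.7%. Sebaceous-like cells of the tested P0 libraries, at 24 to 54.3%, also overlapped it.

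The 4 clusters contributed unequal shares. In IFE-like cells the Hoxa cluster gave 38.6 to 49.1% of all Hox UMIs at E14.5 and 40.4 to 46.8% at E16.5. In fibroblast-like cells the Hoxc cluster gave 52.0 to 62.1% and 60.1 to 68.8%, and in dermal condensate-like cells 55.2 to 60.9% and 58.2 to 67.8%. The embryonic dermis thus had a Hoxc-led pattern in every library and the epidermis a Hoxa-led one. Hoxb led in Schwann-like cells with 72.2 to 75.0% at E14.5, and Hoxd in endothelial-like cells with 54.7 to 57.7% at E16.5, where Hoxc fell to 1.46 to 2.71%. Muscle-like cells were Hoxa-led, with 52.6 to 57.8% at E16.5. In hair follicle-like cells Hoxb gave 34.2 to 39.2% at E16.5 and 43.0 to 49.7% at P0, where inner root sheath-like cells reached 68.9 to 77.0%. Paralog groups 9 to 13 gave 0.53 to 2.33% of Hox UMIs in IFE-like cells at E14.5, 41.2 to 48.4% in Schwann-like cells and 33.9 to 44.1% in endothelial-like cells.

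Some genes were high in non-dermal lineages. Hoxb9, a gene of the thoracic region, was 135, 128, 160 and 130 CPM in Schwann-like cells of WT replicates 1 and 2 and KO replicates 1 and 2 at E14.5 (138 ± 15.1, SD, n = 4) and 92.1, 110, 91.1 and 88.3 CPM at E16.5. Hoxb7 came next at 38.8 ± 7.23 CPM at E14.5, so Hoxb9 stood well above the next gene of these cells. Hoxd9 was 77.3, 99.4, 128 and 158 CPM in endothelial-like cells at E14.5 and 191, 170, 165 and 135 CPM at E16.5. Its neighbour Hoxd10 was 40.9, 42.8, 40.1 and 41.8 CPM in these cells at E16.5, and Hoxd8 60.2 ± 7.15 CPM. In muscle-like cells Hoxa7 was 73.3, 76.9, 73.2 and 75.0 CPM at E16.5, with Hoxa10 at 30.2 ± 6.05 and Hoxa9 at 21.6 ± 1.82 CPM. Hoxa7 was higher in IFE-like (94.98 to 147 CPM) and hair follicle-like cells (94.8 to 163 CPM) of that age. Hoxa10 and Hoxb9 were also not particular to these lineages. In neuron-like cells of WT replicate 1 and KO replicates 1 and 2 at E14.5, Hoxb9 was 119, 369 and 210 CPM and Hoxa10 1.03, 58.8 and 22.6 CPM. These lineage patterns are descriptions over 4 libraries and were not tested.

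**Figure D1:**
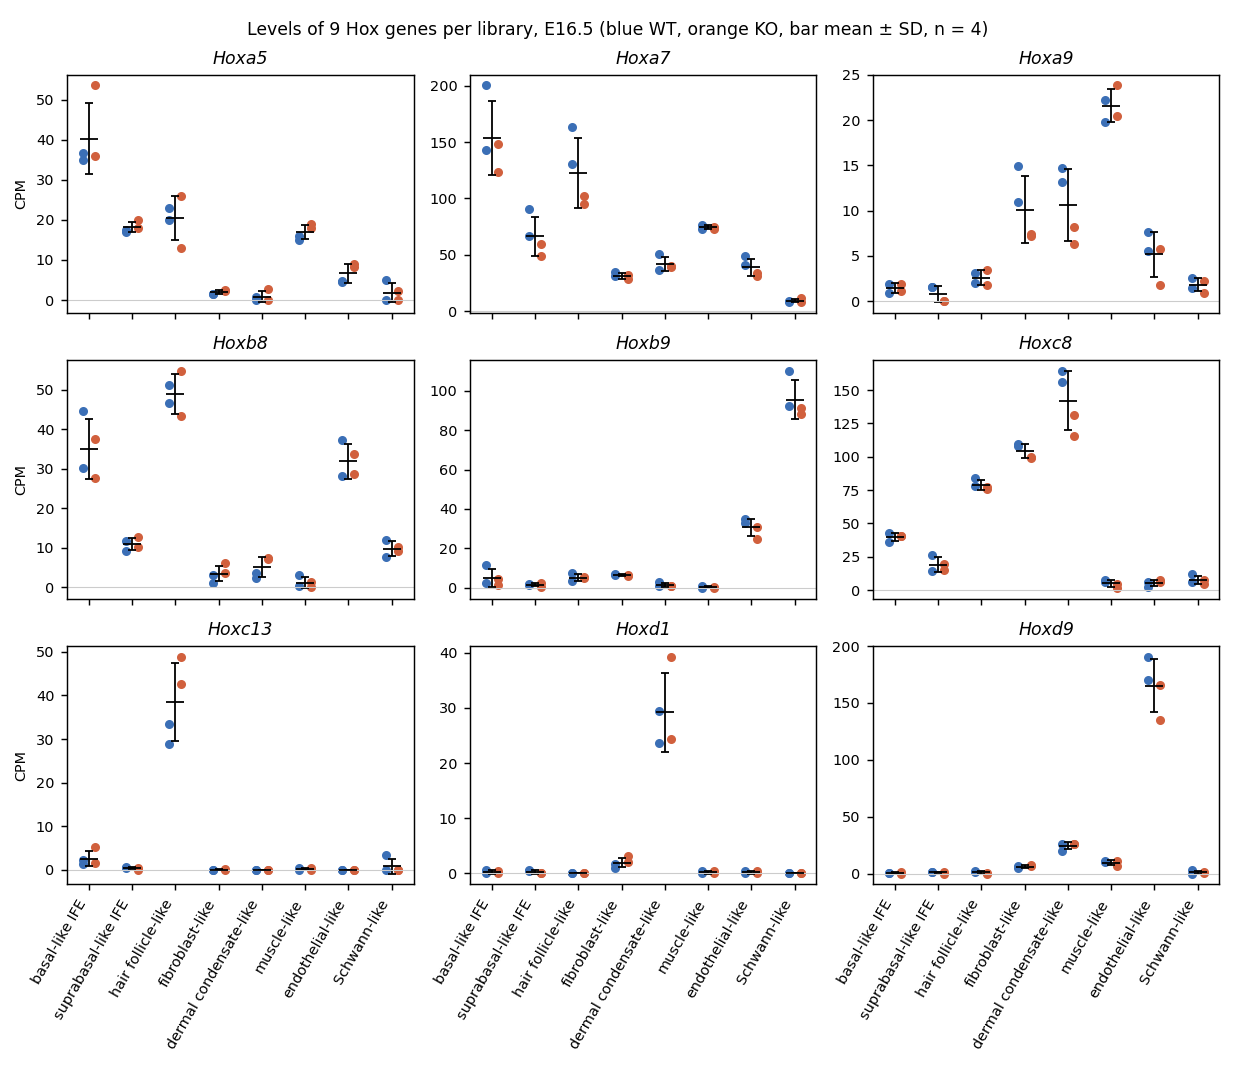
CPM of 9 Hox genes in 8 cell classes of the 4 E16.5 libraries, 2 WT in blue and 2 KO in orange, with the mean and SD in black. Of the classes drawn, Hoxc13 is highest in hair follicle-like (28.9 to 48.9 CPM), Hoxd1 in dermal condensate-like (23.6 to 39.3 CPM), Hoxb9 in Schwann-like (88.3 to 110 CPM) and Hoxd9 in endothelial-like cells (135 to 191 CPM), with no overlap with another class.

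Among dermal cells the Hox level differed between fibroblast clusters. At E14.5 the 6 fibroblast-like clusters with Lum or Crabp1 among their leading genes held 501 to 658 Hox CPM, and the 5 led by Clec3b, Agtr2 or Dpt held 306 to 451 CPM. The 1 remaining cluster, led by Osr2, held 504 CPM. In the largest cluster, led by Crabp1 and Lum, Hoxc5 was 51.1, 59.4, 108 and 69.8 CPM in WT replicates 1 and 2 and KO replicates 1 and 2. In the cluster led by Clec3b and Mfap5 it was 11.8, 16, 25.7 and 25.5 CPM, below in every library. Hoxc8 was 110, 74.4, 52.3 and 123 CPM in the former and 25.6, 53.9, 14.7 and 42.5 CPM in the latter, again lower in each library. Hoxb4 went the other way, with 9.12, 13.8, 28.1 and 13.4 CPM against 23.1, 19.4, 37.0 and 35.6 CPM. At E16.5 the largest cluster, led by Lum and Twist2, held Hoxc8 at 118, 119, 104 and 119 CPM, and the cluster led by Clec3b and Mfap5 held it at 68.4, 63.0, 64.2 and 65.0 CPM. These clusters were picked after their values were seen, and no test was run between them.

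The E14.5 dermis also differed between libraries of 1 genotype. Hoxc9 in fibroblast-like cells was 36.5 and 14 CPM in the WT libraries and 3.42 and 36.8 CPM in the KO libraries. Hoxc8 was 88.6, 72.8, 45.8 and 111 CPM, in the same order of libraries. In IFE-like cells Hoxc9 rested on 5, 5, 1 and 56 UMIs, beside dermal marker transcripts in the same cells (below), whose part in these values was not tested. The spread of these thoracic genes within a genotype exceeded the difference between genotypes. At E16.5 Hoxc10 also differed between libraries, at 7.77 and 19.8 CPM in WT and 1.66 and 0.735 CPM in KO fibroblast-like cells.

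The first comparison asked how dermal and epidermal cells of the same skin differ. At E14.5, 23 of the 27 Hox genes tested differed between fibroblast-like and IFE-like cells, 13 higher and 10 lower in fibroblast-like cells (edgeR, 5% false discovery rate), where 72.8% of all genes tested passed, 37.8% as higher and 35.0% as lower. At E16.5, 25 of 26 passed, 11 higher and 14 lower, against 72.2% of all genes, 37.5% as higher and 34.7% as lower. The median log2 fold change of the Hox genes tested was 0.46 at E14.5 and -0.66 at E16.5, beside 0.03 and 0.04 over all genes tested. Of 21 members called at both ages, 10 were higher in fibroblast-like cells both times (Hoxa9, Hoxc4, Hoxc5, Hoxc6, Hoxc8, Hoxc9, Hoxd1, Hoxd4, Hoxd8 and Hoxd9) and 10 lower (among them Hoxa3, Hoxa4, Hoxa5, Hoxa7, Hoxb4, Hoxb6, Hoxb7, Hoxb8 and Hoxc13). Hoxb3 was called with opposite signs, but its E14.5 sign reversed without integration and against basal-like IFE cells (below). The 10 higher were thus Hoxc and Hoxd genes with Hoxa9, and the 10 lower were Hoxa and Hoxb genes with Hoxc13. Without WT replicate 1 the E14.5 count was 22, and without WT replicate 2 it was 23.

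On the epidermal side, Hoxa5, best known for its role in the neck, thorax and lung, had the largest change among abundant genes. In IFE-like cells it was 70.1, 66.1, 60.9 and 65.0 CPM at E14.5, and in fibroblast-like cells 9.13, 5.20, 2.79 and 1.99 CPM. The groups did not overlap and the log2 fold change was -4.08 ± 0.27 (SE, edgeR adjusted p = 7.252e-07). At E16.5 it was -4.13 ± 0.14 (edgeR adjusted p = 6.964e-08). Hoxa4, its neighbour, was 0.992, 0.813, 0.602 and 0.539 CPM in fibroblast-like and 6.69, 8.26, 9.56 and 8.99 CPM in IFE-like cells at E14.5, lower by 3.69 ± 0.25 on the log2 scale. Hoxa4 and Hoxa5 were therefore higher in the epithelium at both ages, with no overlap between the classes at E14.5. Hoxc13 was 0.0284 to 0.0872 CPM in fibroblast-like and 1.06 to 4.13 CPM in IFE-like cells at E14.5 (log2 fold change -5.52 ± 0.39).

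On the dermal side, Hoxc9 and Hoxd9 had the largest fold changes at E14.5 and Hoxc10 and Hoxc9 at E16.5. Hoxc9 was 36.5, 14, 3.42 and 36.8 CPM in fibroblast-like and 1.15, 0.737, 0.177 and 3.13 CPM in IFE-like cells at E14.5. Within each library the dermal value was the higher one, and the log2 fold change within libraries was 3.74 ± 0.20 (edgeR adjusted p = 1.444e-07). At E16.5 it was 37.0, 53.8, 28.7 and 19.98 CPM against 3.84, 2.18, 1.15 and 1.57 CPM, with a log2 fold change of 3.89 ± 0.22. Hoxd9 was 4.60, 4.45, 9.18 and 8.88 CPM against 0.231, 0.295, 0.708 and 0.726 CPM at E14.5 (log2 fold change 3.56 ± 0.23), and its log2 fold change at E16.5 was 2.61 ± 0.31. Hoxc10 passed the filter on low counts in this comparison at E16.5, where its log2 fold change was 4.76 ± 0.35, and its dermal values ranged from 0.735 to 19.8 CPM. Hoxc8 was 108, 110, 100 and 99.3 CPM against 31.7, 28.4, 28.0 and 31.3 CPM at E16.5, a log2 fold change of 1.73 ± 0.07. Fibroblast marker transcripts summed to 1086 to 1531 CPM in IFE-like cells at E14.5 and 18520 to 21590 CPM in fibroblast-like cells. The part of these transcripts in the IFE-like levels of dermal genes was not tested.

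**Figure D2:**
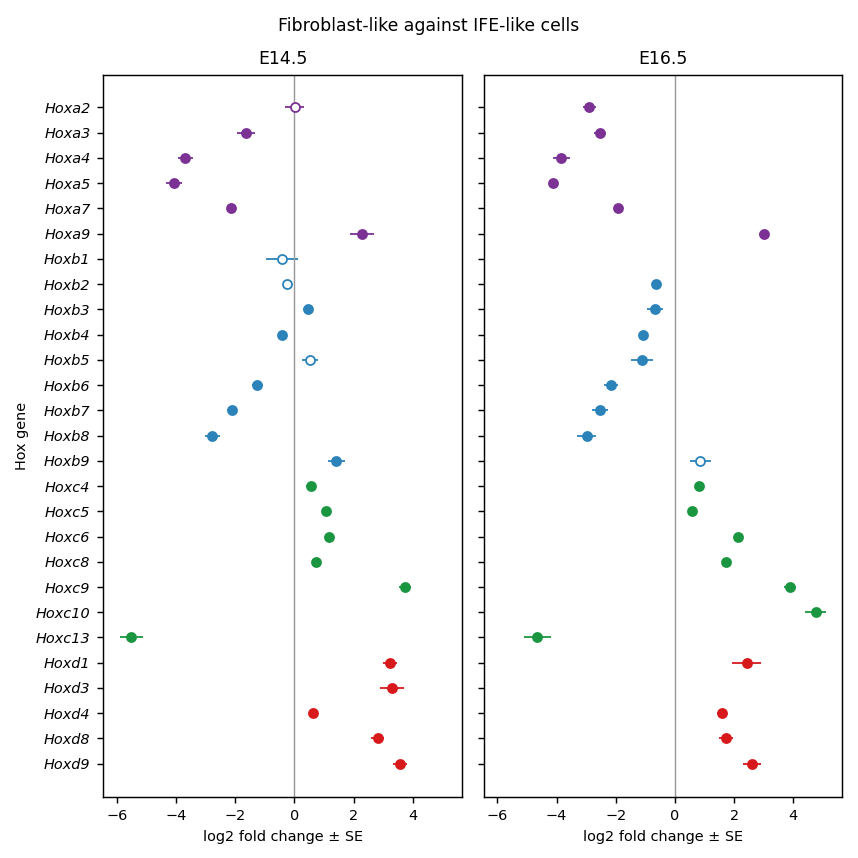
Log2 fold change (x axis, ± SE) of Hox genes tested between fibroblast-like and IFE-like cells at E14.5 and E16.5, 4 libraries each, coloured by cluster (Hoxa purple, Hoxb blue, Hoxc green, Hoxd red). Filled points passed the 5% false discovery rate. Hoxd genes lie to the right at both ages, and Hoxa3, Hoxa4, Hoxa5 and Hoxa7 to the left, with Hoxa5 at -4.08 and -4.13.

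Whether the dermis and epidermis difference itself changed from E14.5 to E16.5 was tested as an interaction, and 8 of 28 members passed, 3 with a larger and 5 with a smaller signed difference, against 18.6% of all genes, 9.54% as higher and 9.11% as lower. Hoxa2 was the largest at -2.92 ± 0.45 (edgeR adjusted p = 0.0009743). Hoxc6 and Hoxc8 gained 0.95 ± 0.15 and 1.01 ± 0.18 on the log2 scale. Without 1 library at a time the count was 4 to 9, falling to 4 without KO replicate 1 of E14.5 or either E16.5 WT replicate and to 5 without WT replicate 2 of E14.5.

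Dermal condensate-like cells differed from other fibroblasts in fewer members. At E14.5, 7 of 25 tested were called, 4 higher and 3 lower, where 37.0% of all genes passed, 16.3% as higher and 20.7% as lower. The E16.5 count was 11 of 24, 6 higher and 5 lower, where 53.6% of all genes passed, 24.9% as higher and 28.7% as lower. The shares were below those of all genes, and the median Hox log2 fold changes were 0.0062 and 0.017. Hoxc9 and Hoxd9 were higher and Hoxa2 and Hoxb2 lower at both ages. Without WT replicate 1 the E14.5 count was 7, of which 6 were shared, and without WT replicate 2 it was 6.

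Hoxd1, a gene of the first paralog group, gave the clearest mark of the condensates at E16.5. It was 23.6, 29.4, 39.3 and 24.4 CPM in dermal condensate-like cells and 1.61, 1.04, 3.09 and 2.04 CPM in fibroblast-like cells, with no overlap. The log2 fold change was 3.77 ± 0.21 (edgeR adjusted p = 2.213e-19). At E14.5 its log2 fold change of -0.79 ± 0.36 did not pass. Hoxd9 was 20.1, 26.3, 25.6 and 26.3 CPM against 6.53, 4.57, 7.12 and 6.25 CPM at E16.5 and 18.8, 32.7, 24.7 and 24.1 CPM against 4.60, 4.45, 9.18 and 8.88 CPM at E14.5, a log2 fold change of 1.82 ± 0.18 and 1.92 ± 0.25. Hoxd4 was 33.0, 27.1, 27.4 and 41.7 CPM against 12.8, 10.4, 13.9 and 16 CPM at E16.5. Hoxd1, Hoxd4 and Hoxd9 were thus higher in the condensates in every E16.5 library. Hoxb2 fell by 1.67 ± 0.19 on the log2 scale at E16.5, from 18.4 to 28.5 CPM in fibroblast-like cells to 4.65 to 11.9 CPM. Hoxa3 gave 0 UMIs in dermal condensate-like cells at E14.5 against 325 in fibroblast-like cells, at least 2.60-fold lower with a floor of 3 UMIs over the 4 libraries. At E16.5 Hoxa2 rested on 2 UMIs and Hoxb6 on 3 in dermal condensate-like cells, with ratios of 4.06 (95% counting interval 1.11 to 33.8) and 4.95 (1.68 to 24.1). At P0 dermal condensate-like cells were few, and in the 3 libraries with at least 20 of them Hoxc8 was 112, 44.4 and 230 CPM.

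Hair follicle-like and IFE-like cells share an origin in the embryonic surface epithelium, and the next comparison asked where their Hox genes part. At E16.5, 10 of 21 members tested differed, 6 higher and 4 lower in hair follicle-like cells, where 42.7% of all genes passed, 20.6% as higher and 22.1% as lower. At P0, 11 of 23 differed, 5 higher and 6 lower, where 44.5% of all genes passed, 22.5% as higher and 22.0% as lower. Both shares were near those of all genes, and the median Hox log2 fold changes were 0.04 and -0.10. Hoxb6, Hoxb8, Hoxc8 and Hoxc13 were higher at both ages, and Hoxa4 and Hoxa5 were among those lower at both.

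Hoxc13 stood out among them. At E16.5 it was 33.4, 28.9, 42.6 and 48.9 CPM in hair follicle-like and 1.10, 1.65, 1.15 and 2.87 CPM in IFE-like cells, a log2 fold change of 4.26 ± 0.20 (edgeR adjusted p = 3.96e-10). At P0 it was 72.2, 76.8, 47.0 and 56.8 CPM against 5.77, 5.44, 5.10 and 6.10 CPM, a log2 fold change of 3.28 ± 0.11 (edgeR adjusted p = 2.644e-05). The follicle values lay above the IFE values in every library at both ages. Within the P0 follicle it was 94.1, 104, 60.1 and 68.4 CPM in hair matrix-like cells, 75.8, 78.4, 47.2 and 55.4 CPM in outer root sheath-like cells, and 12, 15.6, 3.66 and 11.7 CPM in inner root sheath-like cells. Upper hair follicle-like cells had 7.96 ± 3.52 CPM, sebaceous-like cells 18.7, 10.6, 8.45 and 10.8 CPM and basal-like IFE cells 7.34 ± 1.12 CPM. T cell-like cells of P0 held 7.99 to 11 CPM and melanocyte-like cells 1.66 to 3.63 CPM, cells that should lack the gene. The upper hair follicle-like and basal-like IFE values overlapped or lay near this range, while Merkel-like cells of WT, at 19.2 and 22.4 CPM (6 and 9 UMIs), sebaceous-like cells of WT replicate 1, inner root sheath-like cells of 3 libraries and dermal condensate-like cells, at 15.97, 11.85 and 48.3 CPM in WT replicate 1 and KO replicates 1 and 2 (4, 8 and 29 UMIs), lay above it. In the embryo macrophage or Langerhans-like cells had at most 0.53 CPM, and the E14.5 basal-like IFE cells, at 4.35, 8.23, 2.45 and 5.55 CPM, lay above that. Suprabasal-like IFE cells of the same libraries had at most 0.44 CPM.

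Hoxc8, a thoracic gene, was the other member that the study had listed among its follicle genes. It was 84.0, 78.2, 75.6 and 77.1 CPM in hair follicle-like and 31.7, 28.4, 28.0 and 31.3 CPM in IFE-like cells at E16.5, a log2 fold change of 1.18 ± 0.09. At P0 it was 22.8, 20.05, 37.3 and 38.2 CPM against 8.28, 6.17, 28.9 and 30.1 CPM, a log2 fold change of 0.75 ± 0.23 within libraries. The groups overlapped at P0 because the KO values of IFE-like cells lay above the WT values of hair follicle-like cells. Hoxb6, a trunk gene, was 25.0, 31.1, 26.9 and 33.6 CPM against 6.40, 5.68, 12.5 and 10.7 CPM at P0 (log2 fold change 1.59 ± 0.19). Hoxd4 was 5.70, 9.47, 12.9 and 16.6 CPM against 1.26, 1.60, 3.61 and 4.87 CPM at P0 (log2 fold change 1.88 ± 0.15). Hoxc4 was lower in hair follicle-like cells at P0, at 4.16, 3.88, 5.96 and 6.6 CPM against 10.0, 10.3, 25.6 and 30.4 CPM, and was not called at E16.5. The follicle and IFE difference changed from E16.5 to P0 in 5 of 25 members by the interaction test, 1 upward and 4 downward, against 12.7% of all genes, 6.95% as higher and 5.76% as lower. Hoxd4 gained 1.82 ± 0.29 and Hoxc4 lost 1.72 ± 0.22 on the log2 scale. All hair follicle-like cells of E16.5 were outer root sheath-like, while at P0 the class held other follicle cells too. At P0 Hoxd4 was 4.22, 7.15, 8.95 and 13.45 CPM in outer root sheath-like cells. In hair matrix-like cells it was 10.5, 17.4, 20.7 and 22.1 CPM. The part of this mix in the interaction was not tested. The interaction count was 2 to 6 without 1 library at a time, and it fell to 2 or 3 without any 1 of the E16.5 libraries or KO replicate 2 of P0.

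Within the IFE the question was whether Hox genes follow differentiation. They were lower in suprabasal-like than in basal-like cells at every age. At E14.5 13 of 19 members tested were lower and 1 higher, where 47.9% of all genes passed, 24.0% as higher and 23.9% as lower. In the E16.5 libraries it was 17 lower and 2 higher of 19, where 54.6% of all genes passed, 27.4% as higher and 27.2% as lower. At P0 it was 15 lower and 2 higher of 21, where 49.4% of all genes passed, 24.6% as higher and 24.9% as lower. The median log2 fold change of the members tested was -0.55, -1.23 and -0.92, beside -0.0012, -0.011 and 0.0087 over all genes. Between E14.5 and E16.5, 13 members were called lower both times, and between E16.5 and P0 14 were. At P0 the count fell from 17 to 10 without WT replicate 1 and to 11 without WT replicate 2. At E14.5 the count was 14 without WT replicate 1, all lower, and 13 without WT replicate 2.

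The summed level, in CPM without the scaling used in the tests, was also lower in suprabasal-like cells of each library. It was 566 to 750 CPM in basal-like and 314 to 427 CPM in suprabasal-like cells at E14.5, and 513 to 599 against 215 to 260 CPM at E16.5. At P0 basal-like cells had 405, 377, 459 and 495 CPM and suprabasal-like cells 148, 155, 293 and 282 CPM. The layers did not overlap at any age. Among single genes Hoxc5 was 12.1, 13.6, 14.8 and 14.1 CPM in basal-like and 2.81, 1.60, 2.73 and 4.68 CPM in suprabasal-like cells at E16.5 (log2 fold change -2.20 ± 0.25, edgeR adjusted p = 1.419e-05). Hoxa2 was 16, 16.8, 18.3 and 15.5 CPM against 2.61, 2.93, 4.10 and 3.90 CPM (log2 fold change -2.19 ± 0.20). Hoxb8 was 30.2, 44.5, 37.4 and 27.7 CPM against 9.24, 11.7, 12.8 and 10.1 CPM (log2 fold change -1.51 ± 0.13). Hoxb3, an anterior gene, fell by 1.82 ± 0.19 on the log2 scale at P0, from 20.9, 15.9, 18.4 and 21.2 CPM to 3.70, 3.90, 5.45 and 2.75 CPM. Hoxa7, the leading gene of the IFE, was 184, 118, 113 and 222 CPM in basal-like and 112, 55.1, 45.3 and 103 CPM in suprabasal-like cells at E14.5 (log2 fold change -0.94 ± 0.09) and did not pass at P0. It was among the most abundant members in both layers.

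Hoxd4 and Hoxd8 went against the rest. Hoxd8, a trunk gene, was 6.89, 4.72, 4.08 and 12.8 CPM in suprabasal-like and 3.32, 1.12, 2.10 and 3.08 CPM in basal-like cells at P0, a log2 fold change of 1.91 ± 0.30 (edgeR adjusted p = 0.00136). At E16.5 it was 1.48 ± 0.24, with KO replicate 1 at 2.73 CPM in suprabasal-like cells, below 3 of the 4 basal-like values. Hoxd4 rose by 0.74 ± 0.27 at E16.5 and by 1.01 ± 0.26 at P0. Both genes were tested and did not pass at E14.5. Hoxb7 was higher in suprabasal-like cells at E14.5 (log2 fold change 0.50 ± 0.16) and lower at E16.5 (-0.32 ± 0.12).

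**Figure D3:**
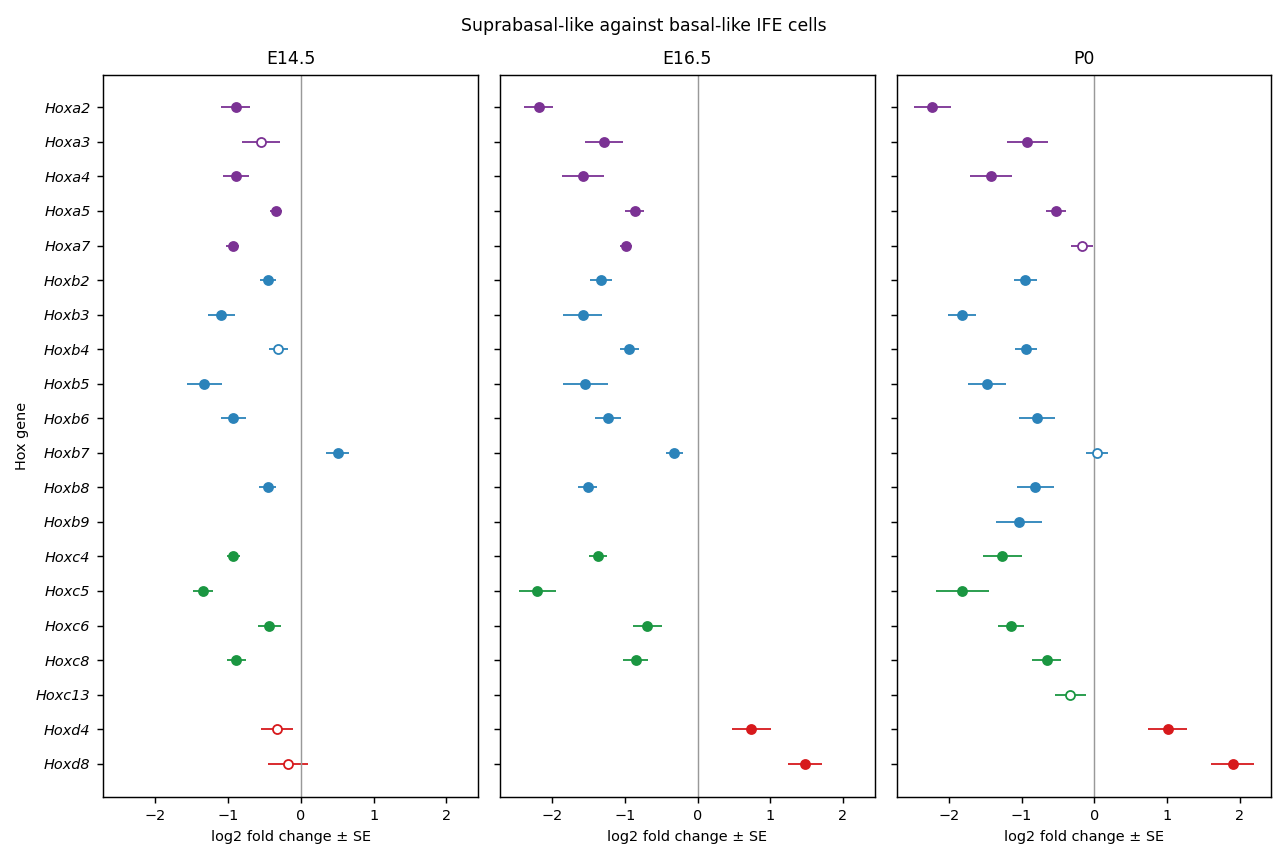
Log2 fold change (x axis, ± SE) of Hox genes tested between suprabasal-like and basal-like IFE cells at E14.5, E16.5 and P0, 4 libraries each, coloured by cluster (Hoxa purple, Hoxb blue, Hoxc green, Hoxd red). Filled points passed the 5% false discovery rate. Points of Hoxa, Hoxb and Hoxc lie left of 0 except Hoxb7 at E14.5 (0.50) and P0, and Hoxd4 and Hoxd8 lie right of it at E16.5 and P0.

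Across ages in WT, the summed Hox level of IFE-like cells was 505 and 436 CPM at E14.5, 404 and 435 CPM at E16.5 and 278 and 252 CPM in the tested P0 libraries, with 392 CPM in the first P0 library. It was thus lower at P0 than in the embryo in the tested libraries, while the first lay near the E16.5 values. From E14.5 to E16.5, 6 of 25 members changed, 2 up and 4 down, where 18.6% of all genes passed, 10.4% as higher and 8.23% as lower. From E16.5 to P0, 15 of 25 changed, 4 up and 11 down, where 57.0% passed, 29.0% as higher and 28.0% as lower, and the median Hox log2 fold change was -0.80 beside 0.017 over all genes. Hoxa5 was 70.1 and 66.1 CPM at E14.5 and 29.1 and 26.8 CPM at E16.5 (log2 fold change -1.16 ± 0.16, edgeR adjusted p = 0.0006565). Hoxc5 was 18.2 and 21.5, then 8 and 7.73, then 1.20 and 1.55 CPM over the 3 ages, and both steps passed. Hoxc8 was 31.7 and 28.4 CPM at E16.5 and 8.28 and 6.17 CPM at P0 (log2 fold change -1.95 ± 0.16, edgeR adjusted p = 3.575e-06). Hoxc4, Hoxc5 and Hoxc8 were thus lower at P0 than at E16.5 in the 2 tested P0 WT libraries, while Hoxc6 did not pass at either step (14.2 and 9.62 CPM at E16.5, 11.4 and 10.2 CPM at P0). Hoxc13 rose from 1.10 and 1.65 to 5.77 and 5.44 CPM, with 2.25 CPM in the first P0 library. These P0 values lie below those of T cell-like cells in the same 2 tested libraries (11.03 and 10.7 CPM). They lie above those of melanocyte-like cells and of macrophage or Langerhans-like cells there, the latter on 6 and 4 UMIs. Embryonic macrophage or Langerhans-like cells had at most 0.53 CPM, and the part of the background in the rise was not tested. Hoxb3, Hoxb4 and Hoxb5 were called higher in the 2 tested P0 WT libraries. The first P0 WT library, with Hoxb3 at 5.37 and Hoxb4 at 19.7 CPM, did not lie above the E16.5 WT values (6.51 and 5.73 CPM for Hoxb3, 22.4 and 16.8 CPM for Hoxb4). Its Hoxb5 was 4.51 CPM, beside 2.90 and 3.78 CPM at E16.5. Hoxc9 rested on 2 UMIs at P0 against 86 at E16.5, a ratio of 55.2 (95% counting interval 14.8 to 463), and Hoxd1 on 0 against 10 UMIs, at least 4.28-fold lower with a floor of 3 UMIs over the group. In the same library, made with the earlier kit, Hoxc8 was 17.7, Hoxc5 10.3 and Hoxc4 16.6 CPM in IFE-like cells, above both other P0 WT libraries. There Hoxc8 and Hoxc4 lay below the E16.5 WT values and Hoxc5 above them. Suprabasal-like cells made up 34.5 and 35.8% of IFE-like cells in the E16.5 WT libraries. They were 48.1 and 52.9% in the 2 tested P0 WT libraries and 21.5% in the first. Within suprabasal-like cells fewer members passed from E16.5 to P0 (below). From E14.5 to E16.5 the count fell to 3 without WT replicate 2 of E14.5 and to 2 without WT replicate 2 of E16.5.

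Hair follicle-like cells changed in 13 of 25 members from E16.5 to P0, 4 up and 9 down, where 47.6% of all genes passed, 24.8% as higher and 22.8% as lower. Hoxc8 was 84.0 and 78.2 CPM, then 22.8 and 20.05 CPM (log2 fold change -1.85 ± 0.13, edgeR adjusted p = 2.117e-07). Hoxc4 was 24.0 and 27.4 CPM, then 4.16 and 3.88 CPM (-2.60 ± 0.19). Hoxc13 rose from 33.4 and 28.9 to 72.2 and 76.8 CPM (1.33 ± 0.15). The first P0 WT library had 56.3 CPM of Hoxc8, 8.12 CPM of Hoxc4 and 52.0 CPM of Hoxc13, each between the E16.5 and the tested P0 WT values. In the tested libraries Hoxc4 and Hoxc8 fell in both epithelial classes. All hair follicle-like cells of E16.5 were outer root sheath-like, while at P0 the class held other follicle cells too. In outer root sheath-like cells of the tested P0 WT libraries, Hoxc8 was 29.95 and 24.4 CPM and Hoxc4 5.52 and 5.085 CPM. Hoxc13 was 75.8 and 78.45 CPM in those cells. Fibroblast-like cells changed in 15 of 28 members from E14.5 to E16.5, 5 up and 10 down, where 37.7% of all genes passed, 18.6% as higher and 19.1% as lower. There Hoxa2, a gene of the hindbrain, was 11.4 and 25.2 CPM and then 1.21 and 0.922 CPM (-3.90 ± 0.50), and Hoxa5 9.13 and 5.20 and then 1.47 and 1.56 CPM (-2.08 ± 0.31). The posterior genes Hoxc10 and Hoxa10 rose, from 1.27 and 0.0872 to 7.77 and 19.8 CPM (4.64 ± 1.5) and from 0.0794 and 0.174 to 0.606 and 3.37 CPM (3.96 ± 1.23). Hoxa9 rose too, from 5.95 and 3.22 to 10.9 and 15 CPM. The KO libraries did not show the rise of Hoxc10, at 0.0317 and 13.3 CPM at E14.5 and 1.66 and 0.735 CPM at E16.5, or of Hoxa10, at 0.158 and 1.62 and then 0.0377 and 0.234 CPM, and the difference between genotypes in these changes was not tested. The count fell to 9 without either E16.5 WT replicate.

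**Figure D4:**
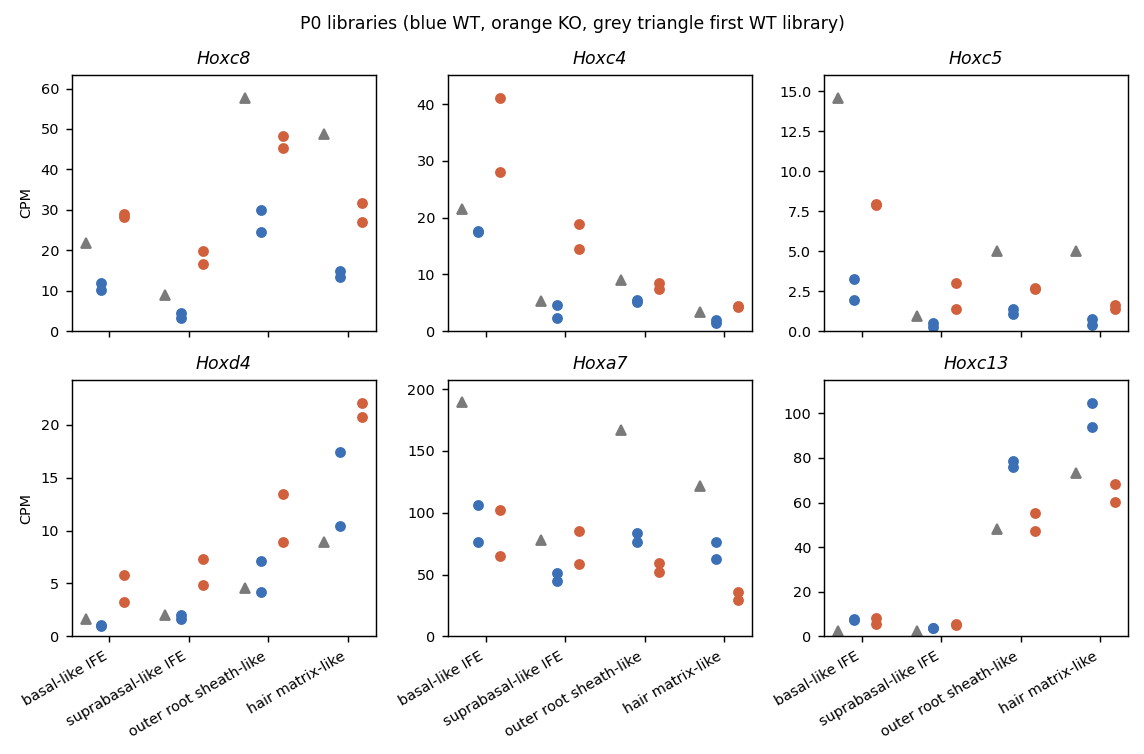
CPM of 6 Hox genes in 4 epithelial classes of the 5 P0 libraries, 2 WT in blue, 2 KO in orange and the first WT library as a grey triangle. In basal-like and suprabasal-like IFE cells the KO values of Hoxc8, Hoxc4 and Hoxd4 lie above both blue WT values, the first WT library lies above the KO values for Hoxc5 in basal-like cells, and Hoxc13 is highest in hair matrix-like cells of WT (94.1 and 104 CPM).

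Loss of Grhl3 was compared within each age and class. At E14.5 and E16.5, 0 of 25 Hox genes tested passed in IFE-like cells, where 0.323% and 1.15% of all genes passed. At E14.5 these were 0.169% as higher and 0.154% as lower, and at E16.5 0.353% as higher and 0.794% as lower. Unadjusted p was under 0.05 for 5 and 1 of them by edgeR, and DESeq2 called 0 at both ages. In hair follicle-like cells of E16.5, 0 of 25 passed (4 at unadjusted p under 0.05, 1 by DESeq2), where 0.0906% of all genes passed, 0.0302% as higher and 0.0604% as lower, and in fibroblast-like cells of E16.5 0 of 28 (9 at unadjusted p under 0.05, 3 by DESeq2), where 1.26% passed, 0.329% as higher and 0.931% as lower. With no filter on low counts each of these comparisons called some members (below). A fit of only the E16.5 libraries also did so in fibroblast-like cells.

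At P0, 11 of 25 Hox genes were called in IFE-like cells, all 11 higher in KO, where 38.4% of all genes passed, 18.8% as higher and 19.6% as lower. The median Hox log2 fold change was 0.71, beside -0.0050 over all genes. Summed over the members, WT had 278 and 252 CPM and KO 424 and 433 CPM, with 392 CPM in the first WT library. Hoxc8 was 8.28 and 6.17 CPM in WT and 28.9 and 30.1 CPM in KO, a log2 fold change of 1.95 ± 0.16 (edgeR adjusted p = 1.702e-05). Hoxc5 was 1.20 and 1.55 against 7.14 and 6.32 CPM (2.19 ± 0.19, edgeR adjusted p = 1.797e-05). Hoxc4 was 10.0 and 10.3 against 25.6 and 30.4 CPM (1.37 ± 0.15), and Hoxd4 1.26 and 1.60 against 3.61 and 4.87 CPM (1.45 ± 0.28). WT and KO did not overlap for any of these. The others called included Hoxb8, Hoxb6, Hoxc6, Hoxa2, Hoxb7 and Hoxb4, with log2 fold changes of 0.44 to 1.11. The first WT library lay between the genotypes for Hoxc8 (17.7 CPM), Hoxc4 (16.6 CPM) and Hoxd4 (1.78 CPM) and above both KO libraries for Hoxc5 (10.3 CPM).

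Several measures moved with the genotype in these cells of the tested libraries. Suprabasal-like cells were 48.1 and 52.9% of IFE-like cells in WT and 15.8 and 20.8% in KO. The first WT library, with 21.5%, lay near the KO libraries. The 10 suprabasal markers summed to 28690 and 32670 CPM in WT and 7089 and 11630 CPM in KO. Since Hox genes were lower in suprabasal-like cells, the test was repeated within layers. Among basal-like cells 5 members passed, where 35.6% of all genes tested did, namely Hoxc8 (1.38 ± 0.15, edgeR adjusted p = 7.386e-06), Hoxc5 (1.60 ± 0.24), Hoxd4 (2.04 ± 0.37), Hoxc4 (0.94 ± 0.16) and Hoxb8 (0.72 ± 0.27). Hoxb4 was 0.19 ± 0.14 there (edgeR adjusted p = 0.3016). Among suprabasal-like cells all 11 passed, where 28.3% of all genes tested did, with Hoxc8 at 2.10 ± 0.38. The first WT library had Hoxc8 at 21.8 CPM in basal-like cells against 11.9 and 10.1 CPM in the other WT and 29.0 and 28.2 CPM in the KO libraries. Fibroblast markers summed to 358 and 348 CPM in WT, 644 and 614 CPM in KO and 302 CPM in the first WT library. Nearly all of this was Dcn (261, 271, 512 and 475 CPM) and Fbln1 (83.1, 66.3, 111 and 124 CPM), with Col1a2 at 13.2, 10.05, 16.2 and 13.2 CPM. The other 8 markers, Col1a1, Col3a1 and Pdgfra among them, had at most 1.90 CPM each in every library. The paper lists Dcn among the markers of its basal IFE.B2 cells. In hair follicle-like cells Dcn was 449, 522, 583 and 686 CPM. The part of Dcn and Fbln1 in the result was not tested. Without WT replicate 1 the count was 7.

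Hair follicle-like cells of P0 changed in 10 of 25 members, 6 higher and 4 lower in KO, where 37.3% of all genes passed, 19.9% as higher and 17.4% as lower. Hoxc8 was 22.8 and 20.05 CPM in WT and 37.3 and 38.2 CPM in KO, a log2 fold change of 0.97 ± 0.12 (edgeR adjusted p = 3.812e-05). Hoxd4 was 5.70 and 9.47 against 12.9 and 16.6 CPM (1.11 ± 0.23) and Hoxc4 4.16 and 3.88 against 5.96 and 6.6 CPM (0.80 ± 0.17). Those 3 were thus higher in KO than in the tested WT libraries in both epithelial classes, as were Hoxc5 and Hoxb8. Hoxa7 fell from 71.1 and 79.3 to 47.7 and 45.4 CPM (-0.54 ± 0.11), Hoxc13 from 72.2 and 76.8 to 47.0 and 56.8 CPM (-0.36 ± 0.12), and Hoxa2 and Hoxa5 fell as well. Within outer root sheath-like cells 8 members passed, where 35.2% of all genes tested did, and Hoxa2 (-0.45 ± 0.17, edgeR adjusted p = 0.05926) and Hoxa5 (-0.32 ± 0.17, 0.1512) did not. Hoxd9 was called at 0.0396 and 0.167 against 0.172 and 1.052 CPM. It rested on 1 and 5 UMIs in WT and 8 and 48 in KO, with KO replicate 1 close to WT replicate 2. The first WT library had Hoxc8 at 56.3, Hoxc4 at 8.12 and Hoxc5 at 5.01 CPM, each above both KO libraries. Its Hoxd4, at 5.27 CPM, and Hoxb8, at 29.4 CPM, lay below both. Hoxc13 was 52.0 CPM there, between the KO libraries, and Hoxa7 160 CPM. Hair matrix-like cells were 30.4 and 31.0% of hair follicle-like cells in WT and 38.2 and 39.6% in KO, and within them 6 members passed, where 20.9% of all genes tested did, with Hoxc13 at -0.50 ± 0.12. Hoxa5 (edgeR adjusted p = 0.05539), Hoxc5 (0.06592) and Hoxb8 (0.1487) did not pass there.

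In E14.5 fibroblast-like cells 5 of 28 members were called, 4 higher and 1 lower in KO, where 3.43% of all genes passed, 1.50% as higher and 1.93% as lower. Hoxc5 was 30.3 and 46.0 CPM in WT and 89.5 and 64.2 CPM in KO (1.0 ± 0.21, edgeR adjusted p = 0.03758), and Hoxc4 39.9 and 51.3 against 102 and 73.4 CPM (0.93 ± 0.17). Hoxd9 was 4.60 and 4.45 against 9.18 and 8.88 CPM (0.99 ± 0.17), Hoxd8 19.0 and 18.2 against 32.0 and 27.8 CPM (0.67 ± 0.11), and Hoxa5 9.13 and 5.20 against 2.79 and 1.99 CPM (-1.60 ± 0.29). The same clusters did not carry the cells in both genotypes. The cluster led by Clec3b and Mfap5 held 368 and 601 WT and 392 and 123 KO cells, and a cluster led by Dpt, Agtr2 and Mfap4 held 352 and 569 against 171 and 265. In the latter Hoxc5 was 9.92 and 20.1 CPM in WT and 93.5 and 43.3 CPM in KO, and the part of these shares in the result was not tested. The low-Hox clusters led by Calb1, nearly without KO cells, also belong to this age, and without integration, where the larger of them stayed unnamed, the count was 2, and their part in the result was not tested. A fit of only the E14.5 libraries called 1 (Hoxd9), and the replicate block called 3, without Hoxc4 and Hoxc5. Strict cluster names, chosen after seeing the data, take the leading genes of a cluster against all other clusters and leave more clusters unnamed. They also gave 3, where Hoxa5 (edgeR adjusted p = 0.1445) and Hoxc5 (0.05049) no longer passed. The count was 4 without WT replicate 1, of which 3 were among the 5, 3 without WT replicate 2, all among the 5, 2 without KO replicate 1, with 0 among the 5, and 6 without KO replicate 2, with 3 among the 5.

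The wider Hox pathway was read from 4 lists. Of the 9 TALE cofactors, 4 were higher and 1 lower in fibroblast-like than in IFE-like cells at E14.5, and 5 higher and 2 lower of 8 tested at E16.5, beside 72.8% and 72.2% of all genes that passed. In the IFE none was higher and 3 of 7, 5 of 7 and 6 of 8 tested were lower in suprabasal-like cells at E14.5, E16.5 and P0, where 23.9%, 27.2% and 24.9% of all genes were lower. Meis2 was lower in hair follicle-like than IFE-like cells, by 1.65 ± 0.15 on the log2 scale at E16.5 and by 3.94 ± 0.18 at P0. In fibroblast-like cells 7 of 9 fell from E14.5 to E16.5 and none rose, where 19.1% of all genes fell.

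Among 20 chromatin regulators, 5 were higher and 9 lower in fibroblast-like cells at E14.5 and 7 and 9 at E16.5, shares near the 72.8% and 72.2% of all genes. Among them was the Polycomb chromodomain gene Cbx7 at -3.38 ± 0.34 and -2.95 ± 0.36. In suprabasal-like cells 7 of 19, 10 of 20 and 8 of 20 were lower and 1, 3 and 2 higher at the 3 ages, beside 47.9%, 54.6% and 49.4% of all genes called in either direction. In KO cells of P0, 2 rose and 7 fell in IFE-like and 2 rose and 10 fell in hair follicle-like cells, where 38.4% and 37.3% of all genes were called, among them Kmt2d at -1.18 ± 0.24 and -0.89 ± 0.24 and Ezh1 at -0.87 ± 0.15 and -0.85 ± 0.15. At E14.5 and E16.5 none of the 20 passed in KO IFE-like cells.

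Of the 15 retinoic acid and Cdx genes, 6 of 10 tested were higher and 3 lower in fibroblast-like cells at E14.5, and 7 higher and 2 lower of 11 at E16.5, beside 72.8% and 72.2% of all genes. Crabp1, a retinoic acid binding protein, had log2 fold changes of 4.16 ± 0.10 and 3.81 ± 0.17, and the synthesis enzyme Aldh1a2 2.92 ± 0.50 and 5.44 ± 0.46. Crabp2 was higher in suprabasal-like cells at all ages (1.28 ± 0.23, 3.00 ± 0.18 and 5.84 ± 0.49). The degrading enzyme Cyp26b1 was higher in dermal condensate-like cells by 3.57 ± 0.15 at E14.5 and 1.20 ± 0.08 at E16.5. In KO IFE-like cells of P0, 3 of 10 rose and 2 fell, where 38.4% of all genes were called, led by Cyp26b1 (2.62 ± 0.35, edgeR adjusted p = 0.0002142), which had been lower in KO at E16.5 (-1.83 ± 0.30).

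Of 10 noncoding transcripts of the clusters, 7 were in the matrices. Hotairm1, a transcript of the Hoxa cluster, was lower in fibroblast-like cells by 3.76 ± 0.09 at E14.5 and 3.58 ± 0.11 at E16.5. Hoxb5os was higher in hair follicle-like cells (1.35 ± 0.26 at E16.5 and 1.24 ± 0.20 at P0) and rose in KO IFE-like cells of P0 by 1.81 ± 0.28 and in KO hair follicle-like cells by 1.09 ± 0.21. Hoxd3os1 was higher in suprabasal-like cells by 1.36 ± 0.26 at E16.5 and 1.53 ± 0.28 at P0, the direction that Hoxd4 and Hoxd8 took. Whether reads of a Hox gene and its antisense partner were separated by strand is not given in the sources used here, so these overlapping pairs are uncertain.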

How the data were processed

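Single-cell libraries of mouse back skin were deposited as raw UMI counts per gene and cell. The authors aligned reads to mm10 with Cell Ranger (1.3.1 in the submitters' notes) and used Seurat. Following the study's methods, a cell was kept if it had 600 to 4800 genes in embryos or 900 to 7700 genes in newborns, with mitochondrial UMIs no higher than 10%. Doublets were marked by scrublet scores (scanpy 1.11.5), and clusters rich in them stayed unnamed. Cells were clustered per age with Seurat 5.3.0 (3000 variable genes without Hox genes, 30 components, resolution 1.0). Limits for naming clusters were set after their marker scores were seen. Counts were summed per library and class (at least 20 cells) and tested with edgeR 4.0.16 (quasi-likelihood, filterByExpr, TMM, Benjamini-Hochberg at 0.05 over all genes tested, R 4.3.3), with the library as block for classes and all 12 libraries in 1 fit for genotype and age. SE is the log2 fold change over the root of F. DESeq2 1.42.0, no filter, other clusterings and leaving out each library were alternatives. The scripts were tested on simulated data. The counts cover all 39 members, of which 1 is not reported here by name, as is 1 listed gene. Named are up to 6 called members with the largest change per comparison, the 6 most abundant per class, and Hoxc8 and Hoxc13. Members and lists were chosen with earlier results of these data known. Counting intervals and floors cover counting error only. The methods describe a male and a female per genotype and age, which Xist and Ddx3y do not bear out for every group.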

Additional observations from a re-analysis of the deposited data

Results flagged for a closer look

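The difference between fibroblast-like and IFE-like cells changed from E14.5 to E16.5 by the interaction test (edgeR) in Hoxa2 (-2.92, adjusted p = 0.0009743), Hoxb3 (-1.15, 0.02835), Hoxb4 (-0.68, 0.03518) and Hoxb5 (-1.65, 0.04304), all toward the epidermis, and in Hoxc6 (0.95, 0.001291), Hoxc8 (1.01, 0.002049) and Hoxd4 (0.96, 0.01151), toward the dermis, on the log2 scale.

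The difference between hair follicle-like and IFE-like cells changed from E16.5 to P0 by the same test in Hoxc4 (-1.72, adjusted p = 0.001021 by edgeR), Hoxc5 (-1.24, 0.04412), Hoxc6 (-1.07, 0.03705), Hoxc13 (-1.003, 0.01842) and Hoxd4 (1.82, 0.002571). Hair follicle-like cells were all outer root sheath-like at E16.5 but not at P0, and the part of this in the change was not tested. For Hoxc13 the IFE-like values of P0 (5.10 to 6.10 CPM) lie below those of T cell-like cells of the same libraries (7.99 to 11 CPM). They lie above those of melanocyte-like cells and of macrophage or Langerhans-like cells there, the latter on 6, 4, 7 and 6 UMIs. Embryonic macrophage or Langerhans-like cells had at most 0.53 CPM, and the part of the background in the change was not tested.

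At P0 the log2 fold change of KO against WT took opposite signs in IFE-like and hair follicle-like cells, with every KO library on its side, for Hoxa2 (0.71 and -0.68), Hoxa5 (0.38 and -0.47) and Hoxc6 (0.75 and -0.15). Hoxb7 also met this rule (0.59 and -0.0044), but its fitted follicle change is close to 0, so no direction is read from it. Between E16.5 and P0 the KO change in hair follicle-like cells took opposite signs for Hoxc8 (-0.15 and 0.97) and Hoxc13 (0.49 and -0.36). It did so for Hoxd9 too (-2.67 and 2.58), which rested on 0 and 1 UMIs in the E16.5 KO libraries. In the tested P0 WT libraries Hoxd9 rested on 1 and 5 UMIs. Between E14.5 and E16.5 the KO change in fibroblast-like cells did for Hoxa5 (-1.60 and 0.63). These opposite signs were not tested as differences.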

How the results depend on the processing

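Over 285 alternative counts of called Hox genes in 22 comparisons, 245 stayed within 1.5 times the reported count and 40 did not. Of 2829 values of single called members, 2529 kept direction and threshold, 298 lost the threshold and 2 reversed, and 141 of 225 called members kept both throughout. The 2 reversals were Hoxb3 in fibroblast-like against IFE-like cells at E14.5, at -0.033 without integration and -0.055 against basal-like IFE cells. The cause of the changes below was not tested, except that fewer libraries or cells entered where so named. With WT libraries only, follicle against IFE at P0 gave 17 calls and the dermis and epidermis interaction 14. With no filter on low counts, KO against WT gave 1 (IFE-like, E14.5), 2 (IFE-like, E16.5), 1 (hair follicle-like, E16.5), 16 (fibroblast-like, E14.5) and 9 (fibroblast-like, E16.5), and IFE-like WT from E14.5 to E16.5 gave 10. DESeq2 gave 1 in hair follicle-like and 3 in fibroblast-like cells of E16.5. For fibroblast-like KO against WT, fits of only the libraries of the age gave 1 at E14.5 and 4 at E16.5. That E14.5 count was 2 without integration and 3 with strict cluster names, an alternative chosen after seeing the data. Strict names gave 5 for the dermis and epidermis interaction and 3 for the follicle and IFE interaction, which was also 3 without integration. Classes were also narrowed after seeing the data: basal-like IFE cells gave 5 calls for KO at P0, hair matrix-like cells 6, and suprabasal-like cells 9 for WT from E16.5 to P0.

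Replicate numbers are shared by the groups, but same-numbered libraries did not deviate together (r from -0.17 to 0.054). With 2 libraries a group this cannot show whether they share a litter or a batch. With the replicate block, fibroblast-like KO calls were 3 at E14.5 and 1 at E16.5, IFE-like P0 calls 11, of which 10 were shared, and hair follicle-like P0 calls 10. Leaving out 1 library at a time gave 22 to 23 and 24 to 26 calls for dermis against epidermis (E14.5, E16.5), 6 to 7 and 10 to 12 for condensates, 8 to 9 and 11 to 12 for follicle against IFE (E16.5, P0), and 12 to 14, 17 to 19 and 10 to 17 for suprabasal against basal. For KO against WT it gave 0 to 0, 0 to 0 and 7 to 10 in IFE-like, 0 to 0 and 7 to 8 in hair follicle-like, and 2 to 6 and 0 to 0 in fibroblast-like cells. For ages it gave 2 to 5 and 10 to 13 in IFE-like, 10 to 10 in hair follicle-like and 9 to 13 in fibroblast-like cells, and for the interactions 4 to 9 and 2 to 6. Follicle against IFE at E14.5 could not be fitted, since no hair follicle-like cluster was found. Depth limits members of groups 11 to 13 other than Hoxc13, which did not pass the filter on low counts in most comparisons.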

Other observations

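Neuron-like cells of E14.5 held more Hox transcript than any other named class, at 6304, 6219 and 5406 CPM in WT replicate 1 and KO replicates 1 and 2. Where these cells came from was not tested. WT replicate 2 held only 12 such cells, at 4599 CPM. Hoxb8 was even between the libraries, at 1205, 1167 and 1105 CPM in the 3 libraries with over 20 cells. Other genes were not even. Hoxa5 was 1268, 185 and 211 CPM, while Hoxc9 was 9.31, 814 and 549 CPM and Hoxc8 10.3, 403 and 203 CPM. Hoxa9 was 7.24, 310 and 331 CPM, so these 3 genes were lower in WT replicate 1 than in both KO libraries. Hoxb9 was 119, 369 and 210 CPM. Hoxb6 was 792, 596 and 436 CPM and Hoxb5 619, 344 and 331 CPM.

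Merkel-like cells of P0, the touch receptor cells of the epidermis, held Hoxa7 at 83 ± 6.78 CPM (SD, n = 3) and Hoxb4 at 64.0 CPM. An unnamed E16.5 cluster of 42 cells, led by Ccer2, Krt8, Fabp7 and Pou4f3, held 931 Hox CPM, and an unnamed E14.5 cluster led by Fabp7 and Aldoc held 1307 CPM, with 286 of its cells in WT replicate 1 and 19, 10 and 9 in the other libraries.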
